A study of Mus musculus with 12 samples.

Results

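The genes described here are interferon-stimulated antiviral genes, chosen by symbol with earlier results of these data known. Of 45 symbols listed, 44 were tested, among 16484 genes, because 3 or more of the 12 libraries held over 10 counts of each. They were read by role: 7 sensors of foreign nucleic acid, 4 transcription factors, 9 regulators, 17 effectors and 7 GTPases. Oasl1, an OAS-like regulator of antiviral translation, was the symbol that did not pass, with 0 to 7 counts in a library. Irgm1 appears on a second row, on an unplaced scaffold with 0 to 4 counts, which did not pass the filter either. Counts were above 10 in every library for 41 of the 44 members and above 100 in every library for 34. The other 3, Oas1a, Rsad2 and Mx1, passed with 1 or more libraries at 10 counts or fewer.

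Interferon-stimulated genes are switched on when a type I interferon binds its receptor pair IFNAR1 and IFNAR2, and the receptor kinases JAK1 and TYK2 become active. The signal ends in the transcription factor complex ISGF3, which holds STAT2 and IRF9 and binds the interferon-stimulated response element (ISRE) at the promoters of these genes. Many of the genes are also transcribed at a low level without added interferon, so that resting cells keep some of the sensors and effectors at hand. In stromal and bone cells the same genes make up the intrinsic antiviral program.

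The cells were MPC2, a mouse mesenchymal stem cell (MSC) line that grows as an immortalized line under permissive culture and was derived as a single clone. In 6 libraries the cells were undifferentiated MSCs kept at 33 °C, and in 6 they were osteocytes obtained after 3 weeks at 37 °C in medium with beta-glycerophosphate and ascorbic acid. Within each cell type, 3 libraries came from cells given vehicle (DMSO) and 3 from cells given 50 µmol/L FG-4592 (roxadustat), an inhibitor of the HIF prolyl hydroxylases, for 48 hours. Temperature and medium therefore changed together with differentiation, no added interferon was listed for this line, and the labels do not say whether replicates were separate cultures, so that p-values measure the spread between these libraries.

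Library totals ran from 52829185 to 68108470 counts, and levels are given as CPM, counts per 1000000 of the normalized library size. The HIF target list, which includes hypoxia-induced glucose and angiogenic genes, holds 10 genes, of which 7 passed both cutoffs upward in MSCs and in osteocytes, beside 4.12% and 6.25% of all genes. The other 3, Egln3, Car9 and Adm, had 0 to 7 counts in MSCs and passed the filter on low counts only through the treated osteocytes, where they were high, so their rise there is no support. Of 10 osteocyte markers, 7 were tested, while Sost was at 0 counts in all 12 libraries, Mepe at 0 to 2 and Pdpn at 0 to 1. Under vehicle Phex rose from a mean of 0.977 CPM in MSCs to 57.6 in osteocytes and Dmp1 from 1.19 to 11.2, whereas Ibsp was at 59.6 and 35.6 CPM and Capg at 148 and 70.1. With FG-4592, 5 of the 7 fell past both cutoffs in osteocytes, beside 4.26% of all genes, Phex to 2.83 CPM and Dmp1 to 2.06. Capg rose there to 114 CPM at an FDR under 0.05. In MSCs 3 of 7 fell past both, beside 5.17% of all genes. Fgf23, the seventh, had 0 to 8 counts in 9 libraries and 79 to 125 in treated osteocytes, and passed the filter only through that group. Of 9 MSC markers 8 were tested, and with FG-4592 6 fell and 1 rose in MSCs and 4 fell and 2 rose in osteocytes at an FDR under 0.05. Of all genes, 20.4% fell and 17.6% rose in MSCs, and 22% fell and 21.9% rose in osteocytes. Vcam1 fell from 25.1 to 7.2 CPM in MSCs and from 417 to 254 in osteocytes, whereas Ly6a rose from 216 to 396 CPM and from 55.8 to 320. The summed level of the MSC markers ran from 1820 to 1840 CPM under vehicle and 1580 to 1620 under FG-4592 in MSCs, and from 2530 to 2540 and 1990 to 2050 CPM in osteocytes. Of 12 markers of leukocytes, whose cells express many interferon-stimulated genes, 5 were tested. Adgre1 and Siglech were at 0 in every library, Ptprc was at 0 to 9 counts and Itgam at 0 to 2, while Cd14 had 107 to 296 counts, Cd68 45 to 115, Csf1r 9 to 109 and Lyz2 97 to 1179. The summed level of the 12 leukocyte markers still ran from 12.1 to 12.5 CPM in vehicle-treated MSCs and from 5.71 to 7.80 CPM under FG-4592. In osteocytes it ran from 22.1 to 25.3 CPM under vehicle and from 13.7 to 17.0 CPM under FG-4592, mostly from Lyz2, the macrophage lysozyme gene, which fell by 2.00 in MSCs and 0.86 in osteocytes on the log2 scale. At an FDR under 0.05, 1 of the 5 fell in MSCs and 2 in osteocytes, beside 20.4% and 22% of all genes, and none rose. In osteocytes another marker, at -2.14, fell past both cutoffs. All 6 markers of dividing cells fell with FG-4592 in both cell types at an FDR under 0.05, beside 20.4% and 22% of all genes. Their medians were -0.67 in MSCs and -1.21 in osteocytes on the log2 scale. The part of dividing cells, of cells with leukocyte markers and of the changes in osteocyte and MSC markers in the results below was not tested.

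The ISRE is the element that ISGF3 binds, so promoters that carry its core are shown first. RefSeq windows of build GRCm38.p6, from 250 bases before to 50 bases after a start site, were found for 34 of the 44 members. The ISRE core GAAANNGAAA, searched on both strands, was in a window of 17 of the 34 members (50%) and of 3.84% of the 10922 genes tested that have a window. It was found in 4 of 5 sensors, 1 of 4 transcription factors, 2 of 7 regulators, 6 of 14 effectors and 4 of 4 GTPases with a window. The core TTCNNNGAA of the gamma-activated sequence (GAS), searched on both strands, was in 9 of 34 members (26.5%) against 8.31% of genes tested. The hypoxia response core ACGTG was in 3 of 34 members (8.82%) against 28.6% of genes tested. The 3 were Trim25, Oasl2 and Igtp, and the latter 2 fell with FG-4592 in both cell types at an FDR under 0.05. The stretches below are of 6 members that carry an ISRE core and fell past both cutoffs in one or both cell types, and of Samd9l and Trim25, which carry none and did not fall. They were picked to show the core and not to rank the falls: Ifi44, Nmi and Oasl2, whose windows hold no ISRE core, also fell past both cutoffs in both cell types. Each is written 5′ to 3′ on the strand of its gene, ends at or before the start site, and carries the ISRE and hypoxia cores in capitals.
Isg15, chr4:156200819-156200938, minus strand: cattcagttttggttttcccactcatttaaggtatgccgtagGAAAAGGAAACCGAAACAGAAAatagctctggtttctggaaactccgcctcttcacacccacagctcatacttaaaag
Ifit1, chr19:34640769-34640870, plus strand: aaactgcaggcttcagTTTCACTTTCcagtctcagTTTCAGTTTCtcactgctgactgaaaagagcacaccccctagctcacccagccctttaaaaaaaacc
Ifit3, chr19:34583329-34583528, plus strand: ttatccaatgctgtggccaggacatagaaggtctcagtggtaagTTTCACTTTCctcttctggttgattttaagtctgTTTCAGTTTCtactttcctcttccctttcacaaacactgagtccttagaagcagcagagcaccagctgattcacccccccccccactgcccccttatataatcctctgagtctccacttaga
Ifit3b, chr19:34607757-34607956, plus strand: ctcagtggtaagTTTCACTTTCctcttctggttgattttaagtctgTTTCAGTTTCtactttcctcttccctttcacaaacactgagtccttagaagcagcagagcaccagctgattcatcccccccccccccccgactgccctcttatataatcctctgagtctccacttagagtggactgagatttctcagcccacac
Bst2, chr8:71537473-71537612, minus strand: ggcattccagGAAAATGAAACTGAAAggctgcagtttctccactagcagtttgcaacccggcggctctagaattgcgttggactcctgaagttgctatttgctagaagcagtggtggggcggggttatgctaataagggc
Gbp3, chr3:142559944-142560025, plus strand: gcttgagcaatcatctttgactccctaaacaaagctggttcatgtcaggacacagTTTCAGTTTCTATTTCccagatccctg
Samd9l, chr6:3399573-3399691, minus strand: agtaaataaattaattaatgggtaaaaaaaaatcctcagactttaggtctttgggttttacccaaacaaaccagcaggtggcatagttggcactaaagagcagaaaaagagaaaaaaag
Trim25, chr11:88999283-88999375, plus strand: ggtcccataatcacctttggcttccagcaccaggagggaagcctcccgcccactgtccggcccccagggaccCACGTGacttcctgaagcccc

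Isg15 held 3 overlapping ISRE cores between bases -78 and -57 from its start, and Bst2 held 2 between -130 and -115, the first of which overlaps a GAS core at -136 to -128. Ifit1 and Ifit3 each held 2 separate cores, at -104 to -95 and -85 to -76 in Ifit1 and at -156 to -147 and -122 to -113 in Ifit3. Ifit3b repeated the Ifit3 pair further upstream, and the printed stretches of both genes share an identical run of 119 bases. Gbp3 held 2 overlapping cores between -45 and -30. Samd9l had none of these cores in its window, and Trim25 had a hypoxia core on each strand of the palindrome at -48 to -43 and no ISRE core. The absence of a core says only that these letters were not in this window.

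With FG-4592 most members fell in both cell types. In MSCs 21 of 44 fell past both cutoffs, a log2 fold change below -1 and an FDR under 0.05, and none rose, against 5.17% of all genes that fell and 4.12% that rose. In osteocytes 16 of 44 fell and none rose, against 4.26% and 6.25% of all genes. Because the members were chosen with earlier results of these data known, these counts describe them and are not an independent test. At an FDR under 0.05 alone, 36 members fell and 1 rose in MSCs (20.4% and 17.6% of all genes), and 36 fell and 3 rose in osteocytes (22% and 21.9% of all genes). The median log2 fold change of the members was -0.99 in MSCs and -0.69 in osteocytes, beside -0.05 and 0.0015 over all genes tested. Every treated library lay below every vehicle library for 40 members in MSCs and 35 in osteocytes, beside 27.3% and 25.7% of all genes. The first FG-4592 library of MSCs was the lowest of its 3 for 28 of the 44 members. In bulk RNA, fewer cells that express a gene and less RNA per cell cannot be told apart.

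The summed level of the members was 1896, 1931 and 1903 CPM in vehicle-treated MSCs and 1190, 1260 and 1261 CPM with FG-4592. In osteocytes the sum was 1789, 1799 and 1776 CPM under vehicle and 1559, 1511 and 1513 CPM with FG-4592. The treated and vehicle libraries did not overlap in either cell type, and the sums are dominated by a few abundant genes. Per kilobase of gene model, Ifitm3 was the highest member in all 4 conditions, from 173 CPM in FG-4592-treated MSCs to 410 in vehicle-treated MSCs. In vehicle-treated MSCs it was followed by Ifi27 at 92.4 and Lgals3bp at 61.9 CPM per kilobase.

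**Figure D1:**
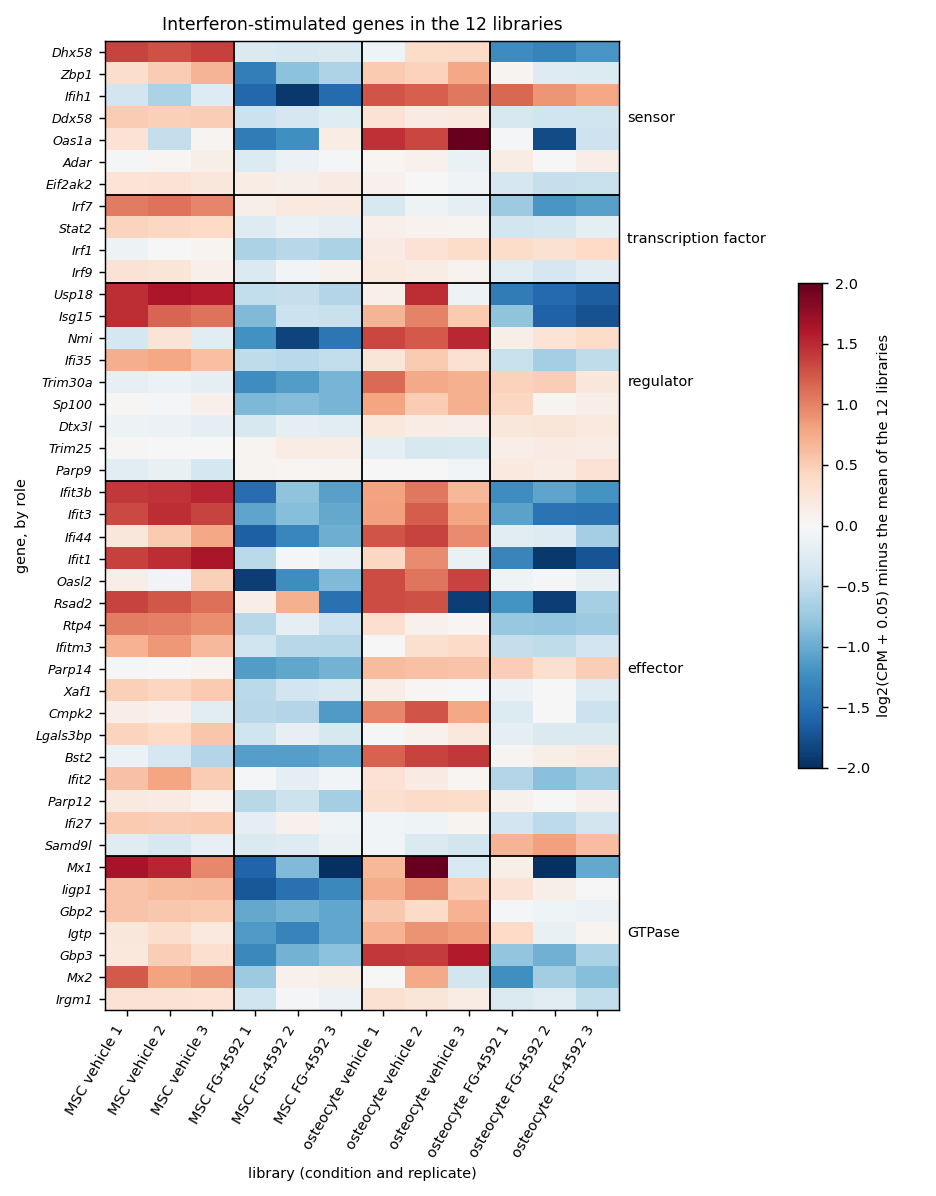
Heatmap of the 44 members (rows, by role) over the 12 libraries (columns), coloured by log2(CPM + 0.05) minus the mean of the 12 libraries, with colours limited at -2 and 2. Both blocks of FG-4592 libraries are bluer than the vehicle block of the same cell type for most rows, while Samd9l is reddest in FG-4592-treated osteocytes.

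Among the effectors, which block viral entry, translation, replication or release, 8 of 17 fell past both cutoffs in MSCs and 8 of 17 in osteocytes. Of all genes, 5.17% and 4.26% did so. At an FDR under 0.05, 15 fell in each cell type, beside 20.4% and 22% of all genes. The IFIT proteins bind foreign RNA at its end and block its translation. In MSCs Ifit3 was at 40.3, 44.5 and 41.1 CPM under vehicle and at 7.67, 8.85 and 7.89 CPM with FG-4592. In osteocytes Ifit3 was at 28.5, 37.2 and 27.9 CPM under vehicle and at 7.6, 5.71 and 5.65 CPM with FG-4592. All treated libraries lay far below all vehicle libraries in both cell types. Ifit3 fell to 19.4% of vehicle in MSCs (log2 fold change -2.37 ± 0.12, FDR = 3.49e-10) and to 20.3% in osteocytes (log2 fold change -2.30 ± 0.12, FDR = 4.43e-10). Ifit3b, its neighbouring copy, was at 14.1, 14.4 and 15.2 CPM in vehicle-treated MSCs and at 1.8, 3.01 and 2.45 CPM with FG-4592. In osteocytes Ifit3b was at 9.28, 11 and 8.36 CPM under vehicle and at 2.2, 2.5 and 2.28 CPM with FG-4592. It fell to 16.7% of vehicle in MSCs (log2 fold change -2.58 ± 0.15, FDR = 2.11e-09) and to 24.4% in osteocytes (log2 fold change -2.03 ± 0.16, FDR = 3.05e-08). The 2 transcripts are 97.824% identical over 1700 aligned bases, so the split of reads between them is uncertain.

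Ifit1 was at 26.3, 28.3 and 31.7 CPM in vehicle-treated MSCs and at 6.98, 9.88 and 9.23 CPM with FG-4592. In osteocytes Ifit1 was at 13.5, 19.6 and 9.25 CPM under vehicle and at 4.03, 2.62 and 3.04 CPM with FG-4592. The vehicle-treated osteocytes spread more than 2-fold, yet the lowest of them stayed above every treated library. Ifit1 fell to 30.3% of vehicle in MSCs (log2 fold change -1.72 ± 0.21, FDR = 6.88e-06) and to 23% in osteocytes (log2 fold change -2.12 ± 0.23, FDR = 1.22e-06). Ifit2, the fourth IFIT gene measured, fell less, by 0.73 in MSCs and 0.87 in osteocytes on the log2 scale, at an FDR of 1.2e-05 and 1.7e-06. Ifi44, a GTP-binding protein induced by interferon, was at 3.81, 4.69 and 5.58 CPM in vehicle-treated MSCs and at 1.01, 1.28 and 1.62 CPM with FG-4592. In osteocytes Ifi44 was at 7.8, 8.38 and 6.31 CPM under vehicle and at 2.76, 2.71 and 2.01 CPM with FG-4592. It fell to 27.8% in MSCs (log2 fold change -1.85 ± 0.21, FDR = 3.04e-06) and to 33.3% in osteocytes (log2 fold change -1.58 ± 0.2, FDR = 6.86e-06), with no overlap between the groups. Oasl2, an OAS-like protein, was at 9.1, 8.05 and 11.7 CPM in vehicle-treated MSCs and at 2.23, 3.52 and 4.51 CPM with FG-4592. In osteocytes Oasl2 was at 20.7, 17.6 and 21.4 CPM under vehicle and at 7.9, 8.22 and 7.56 CPM with FG-4592. Its level was higher in osteocytes than in MSCs under either treatment, and FG-4592 lowered it to 35.7% in MSCs (log2 fold change -1.49 ± 0.19, FDR = 1.15e-05) and 39.6% in osteocytes (log2 fold change -1.33 ± 0.18, FDR = 1.48e-05).

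Bst2, or tetherin, holds budding virus particles at the cell surface. In MSCs Bst2 was at 9.1, 7.78 and 6.57 CPM under vehicle and at 4.58, 4.6 and 4.81 CPM with FG-4592. In osteocytes Bst2 was at 22.4, 25.4 and 26.5 CPM under vehicle and at 10.3, 10.7 and 11.2 CPM with FG-4592. The treated libraries were the lower in both cell types, and the treated osteocytes still stood above the vehicle-treated MSCs. Bst2 fell past both cutoffs in osteocytes, to 43.4% of vehicle (log2 fold change -1.20 ± 0.11, FDR = 1.56e-07), and to 59.8% in MSCs (log2 fold change -0.74 ± 0.12, FDR = 8.01e-05). Cmpk2, a mitochondrial nucleotide kinase encoded next to Rsad2, was at 6.04, 7.32 and 5.22 CPM in vehicle-treated osteocytes and at 2.52, 3.04 and 2.25 CPM with FG-4592, and fell to 42.1% (log2 fold change -1.25 ± 0.2, FDR = 7.15e-05). In MSCs Cmpk2 was at 59% of vehicle (log2 fold change -0.76 ± 0.2, FDR = 0.00708). Rsad2, which encodes the radical-SAM enzyme viperin, was barely counted: 23, 23 and 22 counts in vehicle-treated MSCs and 9, 17 and 1 with FG-4592. The MSC value did not pass (FDR = 0.274). In osteocytes Rsad2 had 27, 22 and 0 counts under vehicle and 2, 0 and 4 with FG-4592, so the groups overlapped. Its fall there just passed (log2 fold change -2.98 ± 1.26, FDR = 0.0496) and was lost under most alternatives, with an FDR of up to 0.146 without the second FG-4592 library. Its value ran to -3.58 without the third vehicle library and -3.92 without the third FG-4592 library.

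Ifitm3, which stops virus from fusing with endosomal membranes, had the highest level of the effectors per kilobase in all 4 conditions. In MSCs Ifitm3 was at 270, 303 and 261 CPM under vehicle and at 126, 113 and 112 CPM with FG-4592. In osteocytes Ifitm3 was at 165, 207 and 216 CPM under vehicle and at 119, 117 and 128 CPM with FG-4592. Treated libraries were close to each other in both cell types, between 112 and 128 CPM. Ifitm3 fell to 42.2% in MSCs (log2 fold change -1.25 ± 0.086, FDR = 1.06e-08) and to 62% in osteocytes (log2 fold change -0.69 ± 0.087, FDR = 6.88e-06). Rtp4, a receptor-transporting protein, and Parp14, a macrodomain ADP-ribosyltransferase, passed both cutoffs in MSCs alone. Rtp4 was at 38.7% of vehicle in MSCs and 52.7% in osteocytes, with 296 exonic bases shared with a predicted gene, and in osteocytes it passed both cutoffs (FDR = 9.58e-06) without the third vehicle library. Parp14 was at 58.9, 60 and 62.3 CPM in vehicle-treated MSCs and at 27.6, 29.1 and 31.1 CPM with FG-4592. In osteocytes Parp14 was at 93.4, 89.9 and 88.9 CPM under vehicle and at 84.9, 75.3 and 84.1 CPM with FG-4592, a far smaller gap. Its log2 fold change was -1.05 ± 0.059 in MSCs (FDR = 8.11e-10), or -0.99 without the third vehicle library, and -0.16 ± 0.058 in osteocytes (FDR = 0.0385), and the responses differed by 0.89 ± 0.083 (FDR = 1.23e-06). The osteocyte call of Parp14 was lost without osteocyte vehicle replicate 1 (FDR = 0.0705) or 2 (FDR = 0.0505), without osteocyte FG-4592 replicate 2 (FDR = 0.19), with no filter (FDR = 0.103) and with only the 6 libraries compared (FDR = 0.0715).

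Xaf1, a pro-apoptotic antagonist of XIAP, fell to 53.9% of vehicle in MSCs (log2 fold change -0.89 ± 0.094, FDR = 1.41e-06), whereas in osteocytes its value of 88.1% did not pass (FDR = 0.134). The ADP-ribosyltransferase Parp12, the secreted glycoprotein gene Lgals3bp and Ifi27 fell in both cell types at an FDR under 0.05, to between 59.1% and 67.6% of vehicle in MSCs and to between 75.9% and 81.6% in osteocytes. Samd9l, which restrains poxvirus replication and cell growth, was the effector that went the other way. In MSCs Samd9l was at 138, 131 and 145 CPM under vehicle and at 133, 136 and 148 CPM with FG-4592. In osteocytes Samd9l was at 157, 134 and 127 CPM under vehicle and at 261, 289 and 250 CPM with FG-4592. The MSC libraries overlapped, while every treated osteocyte library lay above every other library of the study. Samd9l rose to 191% of vehicle in osteocytes (log2 fold change 0.94 ± 0.076, FDR = 5.08e-08), short of the 2-fold cutoff, and by 1.01 without osteocyte vehicle replicate 1, which is past it. Its value in MSCs was 0.01 ± 0.076 (FDR = 0.919).

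**Figure D2:**
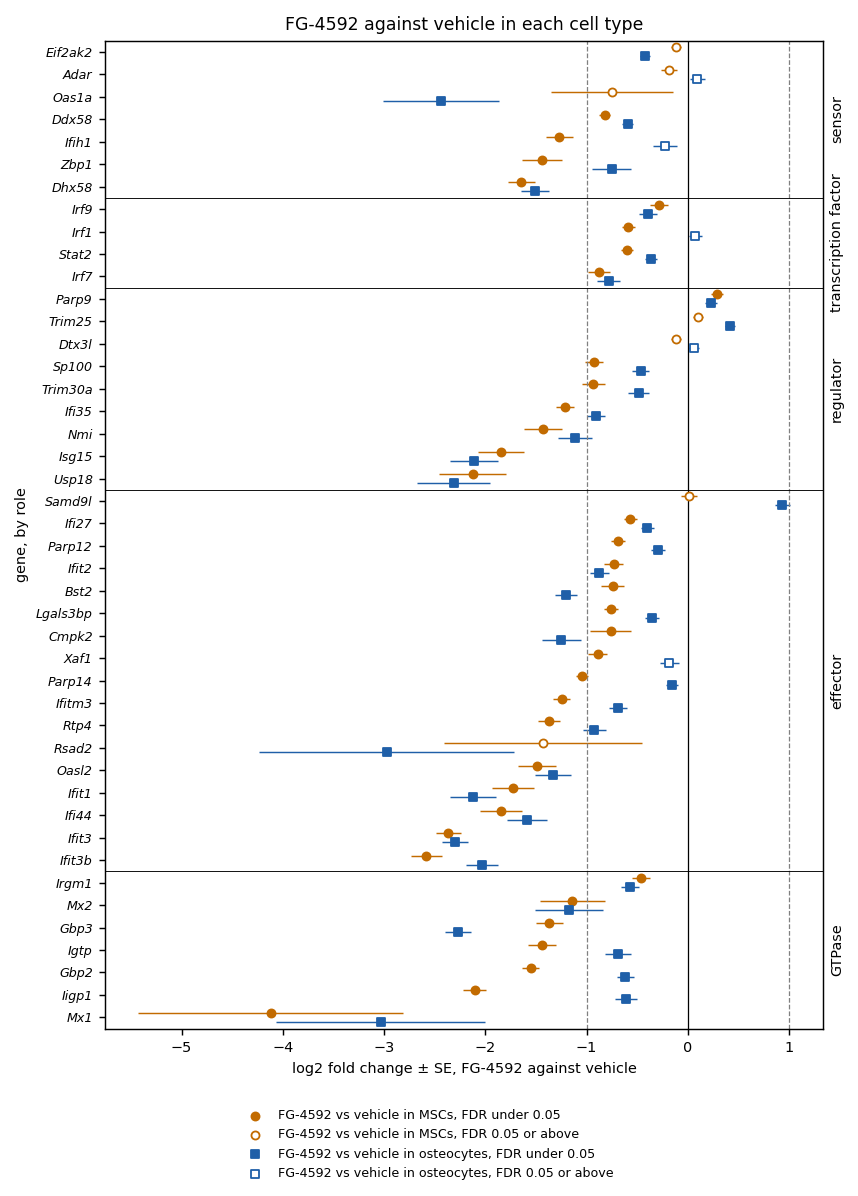
Log2 fold change ± SE of FG-4592 against vehicle for each member, by role, in MSCs (orange circles) and osteocytes (blue squares), with open symbols at an FDR of 0.05 or above and dashed lines at -1 and 1. Most points lie left of 0 in both cell types, Ifit3 at -2.37 and -2.30, and Iigp1 is among the members whose points lie far apart, at -2.10 and -0.61.

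The GTPases coat and disrupt pathogen-containing vacuoles or, for the Mx proteins, trap viral nucleocapsids. All 7 fell at an FDR under 0.05 in both cell types, beside 20.4% and 22% of all genes. Of them, 6 fell past both cutoffs in MSCs and 3 in osteocytes, beside 5.17% and 4.26% of all genes. The 3 were Gbp3, Mx1 and Mx2, and without osteocyte vehicle replicate 2 neither Mx1 (FDR = 0.296) nor Mx2 (FDR = 0.0694) passed the FDR cutoff there. Gbp3, a guanylate-binding protein, was at 9.1, 11.1 and 10 CPM in vehicle-treated MSCs and at 3.19, 4.08 and 4.45 CPM with FG-4592. In osteocytes Gbp3 was at 21.2, 20.8 and 23.8 CPM under vehicle and at 4.56, 4.02 and 5.07 CPM with FG-4592. Vehicle-treated osteocytes were the highest group, and the treated libraries of both cell types lay side by side. Gbp3 fell to 38.8% in MSCs (log2 fold change -1.37 ± 0.13, FDR = 4.4e-07) and to 20.8% in osteocytes (log2 fold change -2.27 ± 0.13, FDR = 6.78e-10). Gbp2, of the same family, was at 21.1, 20.5 and 20.4 CPM in vehicle-treated MSCs and at 6.95, 7.33 and 6.86 CPM with FG-4592. In osteocytes Gbp2 was at 20.5, 18.4 and 23 CPM under vehicle and at 13.9, 13.4 and 13 CPM with FG-4592. Here the larger fall was in MSCs, to 34.1% (log2 fold change -1.55 ± 0.087, FDR = 7.95e-10), against 65.2% in osteocytes (log2 fold change -0.62 ± 0.085, FDR = 1.83e-05). Gbp2 shares 24 exonic bases with Mir6381.

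Iigp1, an immunity-related GTPase that attacks parasite vacuoles, was at 39.2, 40.8 and 41.5 CPM in vehicle-treated MSCs and at 8.09, 9.37 and 10.8 CPM with FG-4592. In osteocytes Iigp1 was at 44.4, 51 and 37.6 CPM under vehicle and at 32.1, 28.6 and 26.6 CPM with FG-4592. The treated MSCs stood apart from the other 3 groups, and the osteocyte groups did not overlap either. Iigp1 fell to 23.3% of vehicle in MSCs (log2 fold change -2.10 ± 0.11, FDR = 5.33e-10) and to 65.7% in osteocytes (log2 fold change -0.61 ± 0.11, FDR = 0.000247). Igtp, also of the immunity-related family, was at 36.9% in MSCs (log2 fold change -1.44 ± 0.14, FDR = 4.14e-07) and 62.2% in osteocytes (log2 fold change -0.69 ± 0.13, FDR = 0.000397), and shares 162 exonic bases with Irgm2. Irgm1, a regulator of the family, fell to 72.8% in MSCs and 67.4% in osteocytes (FDR = 0.000673 and 7.37e-05).

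Mx1 and Mx2 were thinly counted. Mx1 had 32, 32 and 22 counts in vehicle-treated MSCs and 1, 4 and 0 with FG-4592. In osteocytes Mx1 had 18, 83 and 7 counts under vehicle and 11, 0 and 3 with FG-4592, so that 1 vehicle library set the mean and the groups overlapped. The fall passed in MSCs (log2 fold change -4.12 ± 1.31, FDR = 0.00988) and in osteocytes (log2 fold change -3.04 ± 1.03, FDR = 0.0229). In MSCs the value of Mx1 was -5.59 without the second FG-4592 library. In osteocytes it was -1.38 with an FDR of 0.296 without the second vehicle library and -4.54 without the first FG-4592 library, and its FDR was 0.0753 without the second and 0.0761 without the third FG-4592 library. The osteocyte call was also lost with the replicate number as a block (-2.57, FDR = 0.0702). Mx2 was at 45.3% of vehicle in MSCs and 44.4% in osteocytes (FDR = 0.00978 and 0.0101), and without the same osteocyte library its FDR there was 0.0694. In MSCs its FDR was 0.0531 without the first vehicle library, and its log2 fold change was -0.91 without the first FG-4592 library. Mx1 and Mx2 are 95.255% identical over 843 aligned bases, so their counts are uncertain.

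**Figure D3:**
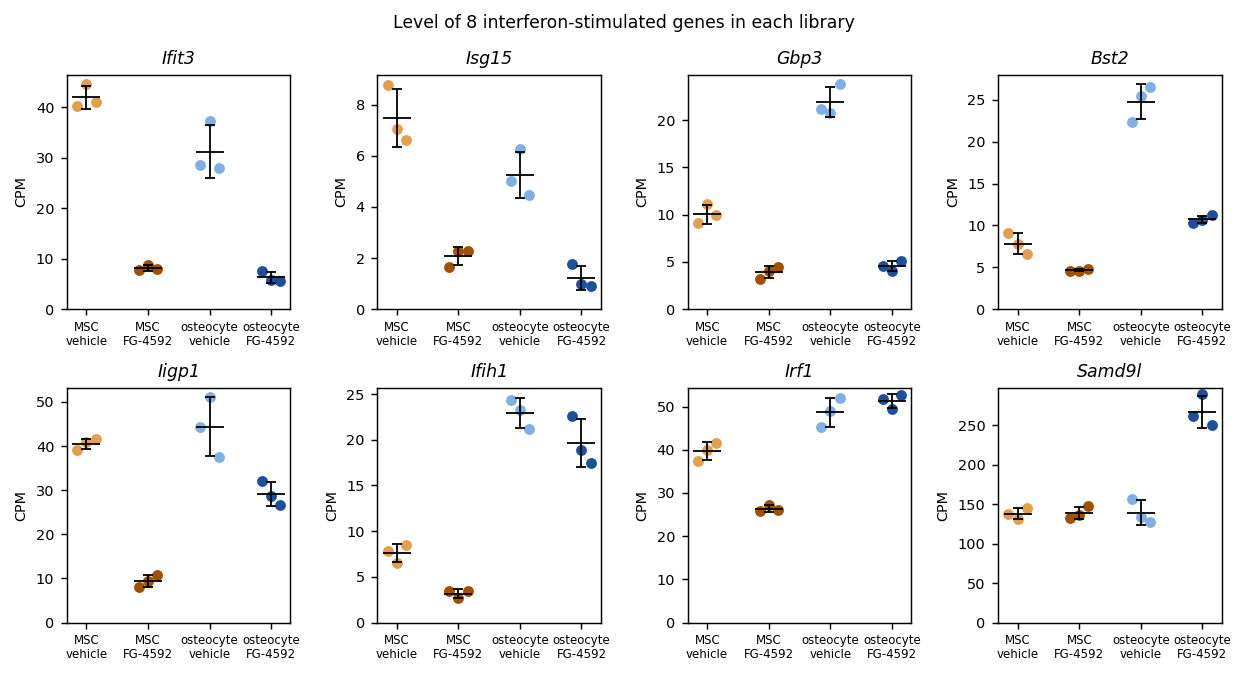
CPM of 8 members in each library (points) with the mean and SD of the 3 libraries (bar and whiskers), in the 4 conditions. Ifit3, Isg15, Gbp3 and Bst2 fell with FG-4592 in both cell types, Iigp1 fell in both and further in MSCs, Ifih1 fell in MSCs and was at 85.8% of vehicle in osteocytes, Irf1 fell in MSCs with osteocytes at 105% of vehicle, and Samd9l rose in osteocytes to 191% of vehicle.

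Of the sensors, 3 of 7 fell past both cutoffs in MSCs and 2 in osteocytes, beside 5.17% and 4.26% of all genes. Dhx58, or LGP2, tunes the other RNA helicase sensors, and it was at 11.9, 11.2 and 12 CPM in vehicle-treated MSCs and at 3.79, 3.68 and 3.76 CPM with FG-4592. In osteocytes Dhx58 was at 4.35, 5.99 and 6.03 CPM under vehicle and at 1.91, 1.8 and 2.03 CPM with FG-4592. The groups were far apart in both, with Dhx58 at 32% in MSCs (log2 fold change -1.64 ± 0.13, FDR = 6.02e-08) and 35.1% in osteocytes (log2 fold change -1.51 ± 0.14, FDR = 2.44e-07). Dhx58 shares 141 exonic bases with its antisense gene Dhx58os, and reads were counted without strand. Ddx58, the RIG-I sensor of RNA ends, was the most counted of the helicases. In MSCs Ddx58 was at 120, 118 and 119 CPM under vehicle and at 63, 66.9 and 71.9 CPM with FG-4592. In osteocytes Ddx58 was at 103, 94.6 and 97.4 CPM under vehicle and at 67.4, 64.2 and 64.1 CPM with FG-4592. Its groups did not overlap, and it fell to 56.6% in MSCs and 66.3% in osteocytes (FDR = 4.41e-09 and 1.7e-07).

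Ifih1, or MDA5, senses long double-stranded RNA, and it was at 7.81, 6.55 and 8.53 CPM in vehicle-treated MSCs and at 3.41, 2.65 and 3.47 CPM with FG-4592. In osteocytes Ifih1 was at 24.4, 23.3 and 21.2 CPM under vehicle and at 22.6, 18.9 and 17.5 CPM with FG-4592. The osteocyte groups overlapped, and both lay well above the MSCs. Ifih1 fell to 41.6% in MSCs (log2 fold change -1.27 ± 0.14, FDR = 1.59e-06), and its osteocyte value of 85.8% did not pass (FDR = 0.154). Zbp1, a sensor of Z-form nucleic acid that can start necroptosis, was at 36.9% in MSCs (log2 fold change -1.44 ± 0.2, FDR = 2.26e-05) and 59.4% in osteocytes (log2 fold change -0.75 ± 0.19, FDR = 0.00419). Eif2ak2, the kinase PKR that halts translation on double-stranded RNA, was at 92.2% in MSCs (FDR = 0.0873) and fell to 74.8% in osteocytes (FDR = 5.57e-06). Oas1a, which makes the messenger that activates RNase L, had 69, 53 and 97 counts in vehicle-treated osteocytes and 22, 4 and 15 with FG-4592. It fell there to 18.5% (log2 fold change -2.44 ± 0.57, FDR = 0.00268), while in MSCs, at 6 to 25 counts, it did not pass (FDR = 0.364). Oas1a is 97.582% identical to Oas1g over 1861 bases, so its counts are uncertain. Adar, which edits double-stranded RNA and keeps self RNA from being sensed, did not pass in MSCs (FDR = 0.0662) or in osteocytes (FDR = 0.338), and shares 1365 exonic bases with Chrnb2. Its fall in MSCs passed the FDR cutoff without MSC FG-4592 replicate 3 (FDR = 0.0335) and with no filter on low counts (FDR = 0.0465).

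The regulators tune the response. Among these, 4 of 9 fell past both cutoffs in MSCs and 3 in osteocytes, beside 5.17% and 4.26% of all genes. Isg15 is the ubiquitin-like modifier that is joined to newly made viral and host proteins. In MSCs Isg15 was at 8.77, 7.06 and 6.63 CPM under vehicle and at 1.66, 2.29 and 2.28 CPM with FG-4592. In osteocytes Isg15 was at 5.01, 6.25 and 4.47 CPM under vehicle and at 1.75, 0.981 and 0.891 CPM with FG-4592. The lowest vehicle library was above the highest treated library by more than 2-fold in each cell type. Isg15 fell to 27.8% in MSCs (log2 fold change -1.84 ± 0.23, FDR = 7.73e-06) and to 23.2% in osteocytes (log2 fold change -2.11 ± 0.24, FDR = 2.29e-06). Usp18, which removes ISG15 and damps signalling at the interferon receptor, was at 3.83, 4.23 and 4.1 CPM in vehicle-treated MSCs and at 0.94, 0.968 and 0.874 CPM with FG-4592. In osteocytes Usp18 was at 1.45, 3.81 and 1.25 CPM under vehicle and at 0.477, 0.425 and 0.396 CPM with FG-4592. The second vehicle-treated osteocyte library was the high one, and the treated libraries still lay below all vehicle libraries. Usp18 fell to 22.9% (log2 fold change -2.12 ± 0.33, FDR = 9.8e-05) and to 20.1% (log2 fold change -2.31 ± 0.36, FDR = 6.96e-05). Without that library the osteocyte value was -1.65 (FDR = 6.07e-05).

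Nmi and Ifi35 form a pair that binds STAT proteins and signals at cell damage. Nmi was at 3.51, 5.39 and 3.85 CPM in vehicle-treated MSCs and at 1.91, 1.21 and 1.62 CPM with FG-4592. In osteocytes Nmi was at 11.4, 10.6 and 12.9 CPM under vehicle and at 4.88, 5.46 and 5.79 CPM with FG-4592. It fell to 37.1% in MSCs (log2 fold change -1.43 ± 0.19, FDR = 1.57e-05) and to 46.2% in osteocytes (log2 fold change -1.11 ± 0.17, FDR = 5.48e-05), from a vehicle level that was higher in osteocytes. Ifi35 was at 43.1% in MSCs and 53.4% in osteocytes (FDR = 1.46e-08 and 3.66e-07). Trim30a and the nuclear body protein Sp100 fell in both cell types at an FDR under 0.05, to 52.4% and 52.5% in MSCs and to 71.4% and 72.4% in osteocytes. Trim30a passed both cutoffs in MSCs, at -1.02, without MSC FG-4592 replicate 3. Trim25, the ubiquitin ligase that helps RIG-I signal, was at 86.2, 79 and 79.8 CPM in vehicle-treated osteocytes and at 108, 111 and 109 CPM with FG-4592, and so rose to 134% of vehicle there (log2 fold change 0.42 ± 0.048, FDR = 2.29e-06). In MSCs Trim25 was at 107% (FDR = 0.111), with an FDR of 0.0236, 0.0428 and 0.0416 when osteocyte vehicle replicate 1, 2 or 3 was left out of the joint fit. Its FDR there was 0.0293 with only the 6 MSC libraries and 0.0221 without genes that share exonic bases. Parp9, an ADP-ribosyltransferase, rose in both cell types, to 122% in MSCs (FDR = 0.000691) and 117% in osteocytes (FDR = 0.00327). Dtx3l, its ubiquitin ligase partner, did not pass in either (FDR = 0.0801 and 0.369). The pair is encoded head to head and shares 458 exonic bases, so part of the reads count for both. In all, 15 of the 44 members share exonic bases with another gene, beside 35.5% of genes tested. Transcripts of Isg15, Samd9l and Sp100 each have a stretch in another annotated gene that is at least 95% identical, so their counts carry the same uncertainty.

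Among the transcription factors none passed both cutoffs. All 4 fell in MSCs at an FDR under 0.05 and 3 of 4 fell in osteocytes, beside 20.4% and 22% of all genes. Irf7, the factor that amplifies interferon production, was at 17.6, 18.1 and 16.8 CPM in vehicle-treated MSCs and at 9.23, 9.77 and 9.65 CPM with FG-4592. In osteocytes Irf7 was at 6.82, 7.94 and 7.47 CPM under vehicle and at 5.11, 3.79 and 3.99 CPM with FG-4592. The groups did not overlap, and Irf7 fell to 54.6% (log2 fold change -0.87 ± 0.11, FDR = 8.33e-06) and to 58.1% (log2 fold change -0.78 ± 0.12, FDR = 3.66e-05). Stat2 and Irf9, which encode parts of ISGF3, fell less, Stat2 to 65.8% and 77.5% and Irf9 to 82.1% and 76.3% of vehicle in MSCs and osteocytes. The fall of Irf9 in MSCs (FDR = 0.0179) was lost without the first MSC vehicle library (FDR = 0.119), the second (FDR = 0.0938) or the first MSC FG-4592 library (FDR = 0.0965). Irf1, which also drives resting expression of many of these genes, was at 37.5, 40 and 41.5 CPM in vehicle-treated MSCs and at 25.9, 27.2 and 26 CPM with FG-4592. In osteocytes Irf1 was at 45.2, 48.9 and 51.9 CPM under vehicle and at 51.7, 49.4 and 52.7 CPM with FG-4592, and the groups overlapped. Irf1 fell to 66.5% in MSCs (log2 fold change -0.59 ± 0.064, FDR = 1.75e-06), was at 105% in osteocytes (FDR = 0.367), and shares 796 exonic bases with the predicted gene Gm17334.

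The falls past both cutoffs were shared by 12 of the 44 members in the 2 cell types, with 9 in MSCs alone and 4 in osteocytes alone, beside 1.55%, 3.62% and 2.71% of all genes tested. At an FDR under 0.05, 33 members fell in both cell types, beside 11.2% of all genes. Passing in one cell type alone is not a difference, so the responses were also compared directly. The response of osteocytes minus that of MSCs passed both cutoffs for 2 members, both upward, against 3.94% of all genes upward and 1.07% downward. These were Iigp1, whose response was higher in osteocytes by 1.50 ± 0.16 (FDR = 4.64e-06), and Ifih1, higher by 1.05 ± 0.18 (FDR = 0.00052). Here a higher response is a log2 fold change that is less negative or more positive, so for a gene that falls it is a smaller fall. Iigp1 was at -2.10 in MSCs and -0.61 in osteocytes, and Ifih1 at -1.27 and -0.22. Ifih1 was below the 2-fold cutoff when any of 5 libraries was left out, at 0.98 without MSC vehicle replicate 1, 0.91 without MSC vehicle replicate 3, 0.93 without MSC FG-4592 replicate 2, 0.94 without osteocyte vehicle replicate 3 and 0.93 without osteocyte FG-4592 replicate 1. Gbp3 passed both cutoffs downward, at -1.02, without MSC vehicle replicate 2 and also without MSC FG-4592 replicate 1. At an FDR under 0.05 alone, 15 members had the higher response in osteocytes and 3 the lower, beside 13.3% and 11% of all genes. The 15 include Gbp2 at 0.93, Samd9l at 0.92, Parp14 at 0.89, Igtp at 0.75, Xaf1 at 0.71 and Irf1 at 0.66. The 3 with the lower response in osteocytes, a larger fall there, were Gbp3 at -0.90 (FDR = 0.00182), Bst2 at -0.46 (FDR = 0.0434) and Eif2ak2 at -0.30 (FDR = 0.00612). At the FDR cutoff Bst2 was lost without 9 of the 12 libraries, taken singly (up to 0.0905 without osteocyte FG-4592 replicate 1), as were Ddx58 (up to 0.183 without osteocyte vehicle replicate 2) and Trim30a (up to 0.167 without osteocyte vehicle replicate 3) without most, and Sp100 without MSC vehicle replicate 3 (0.0549) or osteocyte vehicle replicate 2 (0.052). With the replicate number as a block, Ddx58 (0.0511), Trim30a (0.0662) and Bst2 (0.0681) did not pass either, which left 13 members with the higher response and 2 with the lower. For Ifit3 the difference was 0.07 ± 0.17 (FDR = 0.833), for Isg15 -0.26 ± 0.33 (FDR = 0.616) and for Dhx58 0.13 ± 0.19 (FDR = 0.676), and none of these passed.

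Under vehicle the members did not move one way with differentiation. Osteocytes against MSCs under vehicle gave 8 members higher and 3 lower past both cutoffs, beside 9.83% and 6.08% of all genes, with 16 higher and 18 lower at an FDR under 0.05 (26% and 24.9% of all genes) and a median of -0.04. The 8 higher were Bst2, Ifih1, Nmi, Gbp3, Oasl2, Trim30a, Cmpk2 and Oas1a. Bst2 was at 317% of its MSC level (log2 fold change 1.67 ± 0.11, FDR = 3e-09), Ifih1 at 300% (log2 fold change 1.59 ± 0.12, FDR = 2.67e-08) and Nmi at 274% (log2 fold change 1.45 ± 0.17, FDR = 3.25e-06). For Gbp3 the osteocyte level was 217% of that in MSCs (log2 fold change 1.12 ± 0.12, FDR = 1.37e-06), and Oasl2, Trim30a and Cmpk2 lay between 202% and 207%. The 3 lower were Irf7 at 42.3% (log2 fold change -1.24 ± 0.11, FDR = 1.1e-07), Dhx58 at 46.6% (log2 fold change -1.10 ± 0.13, FDR = 2.93e-06) and Ifit1 at 49% (log2 fold change -1.03 ± 0.2, FDR = 0.000554). Of these calls, Dhx58, Trim30a and Ifit1 were short of the 2-fold cutoff without osteocyte vehicle replicate 1, at -0.93, 0.93 and -0.96, which left 1 member lower. Usp18 passed at -1.56 without osteocyte vehicle replicate 2, one of 5 members lower there, as did Mx2 at -1.16. Cmpk2 and Ifit1 were at 0.95 and -0.92 without MSC vehicle replicate 3, and Oasl2 at 0.97 without MSC vehicle replicate 2. Ifit1 was at -0.76 without osteocyte vehicle replicate 3, Cmpk2 at 0.91 without osteocyte vehicle replicate 2, and the FDR of Oas1a was 0.0538 when MSC vehicle replicate 2 was left out and 0.0502 when the third vehicle library of osteocytes was. The sensors split, with Ifih1 higher and Ddx58 and Dhx58 lower in osteocytes.

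**Figure D4:**
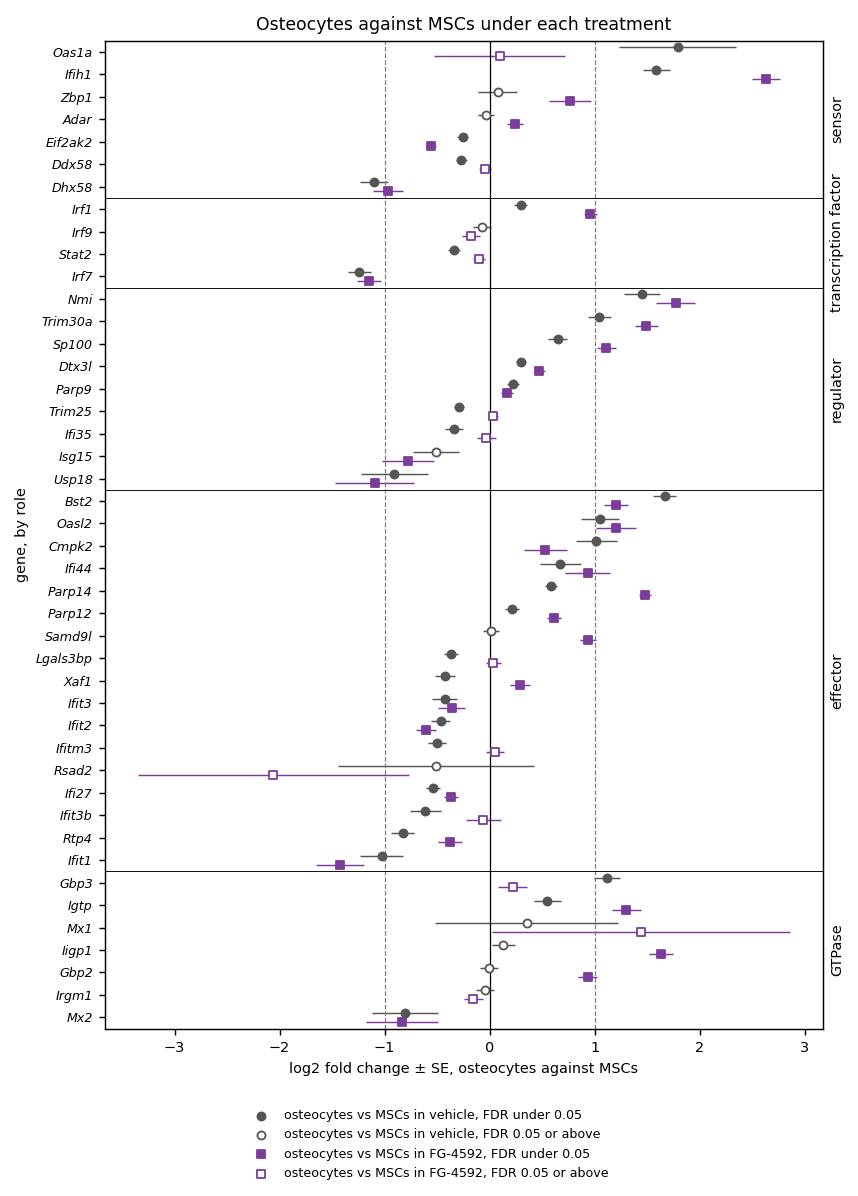
Log2 fold change ± SE of osteocytes against MSCs for each member, by role, under vehicle (grey circles) and under FG-4592 (purple squares), with open symbols at an FDR of 0.05 or above and dashed lines at -1 and 1. Points lie on both sides of 0 under either treatment, with Ifih1 at 1.59 and 2.63 and Irf7 at -1.24 and -1.15.

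Under FG-4592, 9 members were higher in osteocytes and 3 lower past both cutoffs, beside 12.6% and 5.64% of all genes, and 20 were higher and 11 lower at an FDR under 0.05 (30.5% and 25.3% of all genes). With single libraries left out, the lower ones at that FDR numbered from 7 (without osteocyte FG-4592 replicate 2) to 13 (without MSC FG-4592 replicate 1). The higher ones numbered 18 to 20. Ifih1 differed most, at 620% of its level in treated MSCs (log2 fold change 2.63 ± 0.13, FDR = 8.89e-11). Among members whose highest condition averaged 100 counts or more, it was followed by Nmi at 341% (log2 fold change 1.77 ± 0.19, FDR = 6.56e-07) and Iigp1 at 309% (log2 fold change 1.63 ± 0.11, FDR = 4.96e-09). Iigp1, Parp14, Igtp and Sp100 were past both cutoffs under FG-4592 and not under vehicle, and Trim30a, Oasl2 and Bst2 were past both under either treatment. The 3 lower were Ifit1 at 37.2%, Irf7 at 45.1% and Usp18 at 46.8%. Usp18 had an FDR of 0.0519 without osteocyte FG-4592 replicate 2 and 0.0588 without replicate 3. Mx2, one of the 11 lower, had an FDR of 0.0559 with the replicate block and 0.0513 with only the 6 libraries compared. It was also lost without most single libraries, with an FDR of up to 0.155 without osteocyte FG-4592 replicate 1. Oasl2 was at 0.98 without MSC FG-4592 replicate 1, and Sp100 was just short of the 2-fold cutoff without osteocyte FG-4592 replicate 1. Members that passed when 1 library was left out were Ifi44 at 1.12 and 1.06 (MSC FG-4592 replicate 3 and osteocyte FG-4592 replicate 3), Dhx58 at -1.01 (osteocyte FG-4592 replicate 3), Isg15 at -1.15 (osteocyte FG-4592 replicate 1) and Mx2 at -1.07 (MSC FG-4592 replicate 1). Both comparisons of the cell types share their libraries with the comparisons of FG-4592 against vehicle, so the 2 sets of values are not independent.

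The genes upstream of the members were read from lists of the pathway. All 21 interferon genes listed were under the filter, with 16 at 0 in every library and at most 10 counts for any of the others, and Ifnb1, which encodes interferon beta, had 1 count in 1 of 12 libraries. Of the receptor genes, Ifnar1 gave -0.13 in MSCs and 0.06 in osteocytes on the log2 scale (FDR = 0.0523 and 0.388). Ifnar2 gave -0.01 and 0.26 (FDR = 0.949 and 0.0277). Both chains of the interferon gamma receptor fell in MSCs, Ifngr1 to 77.7% (FDR = 2.78e-05) and Ifngr2 to 82.4% (FDR = 0.000139). In osteocytes Ifngr1 was at 96.4% (FDR = 0.44) and Ifngr2 fell to 91.2% (FDR = 0.0255). Il10rb, a chain of the interferon lambda receptor, did not pass in either (FDR = 0.346 and 0.525). Jak1, a receptor kinase, was at 104% of vehicle in MSCs (FDR = 0.42) and rose to 126% in osteocytes (FDR = 9.65e-05). Tyk2, its partner, rose to 116% and 125% (FDR = 0.0147 and 0.00103).

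Over the 17 JAK-STAT genes, 5 rose and 7 fell in MSCs at an FDR under 0.05, and 7 rose and 5 fell in osteocytes, with medians of -0.07 and 0.06, beside 17.6% and 20.4% of all genes in MSCs and 21.9% and 22% in osteocytes. One of them, the phosphatase gene Ptpn6, fell past both cutoffs, in osteocytes (log2 fold change -2.24 ± 0.56, FDR = 0.00353). It was thinly counted there, with 39, 32 and 28 counts under vehicle and 7, 8 and 6 with FG-4592. Among 24 genes of nucleic acid sensing up to IRF3, 6 rose and 9 fell in MSCs and 6 rose and 4 fell in osteocytes, with medians of -0.19 and 0.02, beside the same shares of all genes. Tbkbp1, an adaptor of the kinase TBK1, and the DNA sensor Aim2 fell past both cutoffs in MSCs, to 34.6% and 36.3% of vehicle (FDR = 9.17e-06 and 9.7e-06). Irf5 fell past both in osteocytes, to 45.3% (FDR = 0.0205), on only 24, 30 and 31 counts under vehicle and 5, 23 and 11 with FG-4592. Tmem173, which encodes STING, fell to 54.5% in MSCs (FDR = 3.92e-06) and was at 88.3% in osteocytes (FDR = 0.156), while Cgas, the DNA sensor before it, did not pass in either (FDR = 0.864 and 0.0624). Irf3 was at 84.8% and 97.1% of vehicle (FDR = 0.00976 and 0.652), and Mavs, the adaptor of the RNA sensors, at 114% and 104% (FDR = 0.0194 and 0.455).

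Other interferon-stimulated genes outside the members were read as a further list, which was also chosen with earlier results known. Of 69 tested, 20 fell and 1 rose past both cutoffs in MSCs and 8 fell and 5 rose in osteocytes, beside 5.17% and 4.12% of all genes in MSCs and 4.26% and 6.25% in osteocytes. At an FDR under 0.05, 42 fell and 6 rose in MSCs and 30 fell and 11 rose in osteocytes (20.4% and 17.6% of all genes in MSCs, 22% and 21.9% in osteocytes), with medians of -0.68 and -0.32. The smallest FDRs among the calls in MSCs were for Ms4a4d at -2.04, the nuclear body genes Sp140 at -1.79 and Sp110 at -1.88, and Rnf213 at -1.08 on the log2 scale. In osteocytes they were for Tent5a, which rose to 303% of vehicle, Slfn9 at -1.81, Slfn5 at -1.39 and Ifi27l2a at -3.18.

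**Figure D5:**
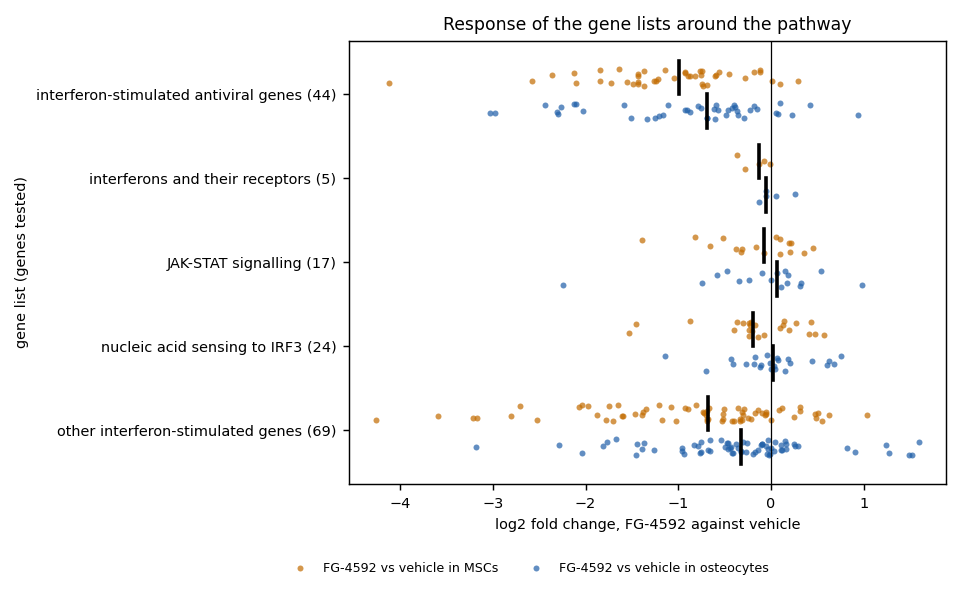
Log2 fold change of FG-4592 against vehicle for each gene tested (points, MSCs orange and osteocytes blue) in the 44 members and in 4 lists around the pathway, with the median of each list as a black bar. The medians of the members (-0.99 and -0.69) and of the other interferon-stimulated genes (-0.68 and -0.32) lie left of 0, and those of the receptor, JAK-STAT and sensing lists lie between -0.19 and 0.06.

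The 17 members whose window held an ISRE core, among them Isg15, Ifit1, Ifit3 and Gbp3 shown above, had a median log2 fold change of -1.27 in MSCs and -0.69 in osteocytes. The 17 with a window and no core had medians of -0.76 and -0.39. Falls past both cutoffs numbered 9 and 4 in MSCs and 8 and 4 in osteocytes, so that the core was not shared by all members that fell. The 2 groups do not cover the 21 falls in MSCs and 16 in osteocytes. Members without a window could not be classed, among them Dhx58, Usp18, Mx1 and Iigp1, which also fell past both cutoffs in MSCs. Whether the core has a part in the falls was not tested. Ifi44, with no core in its window, fell to 27.8% in MSCs, and Eif2ak2, with a core, was at 92.2%.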

How the data were processed

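RNA was measured by paired-end sequencing of poly(A) libraries in 12 samples, 3 for each of 4 conditions. Per the labels and the study's methods, the authors aligned reads to mm10 with STAR 2.7.2a and counted them per gene with featureCounts of Subread 1.6.2, using reads with a mapping quality no lower than 10, without strand and with reads that overlap several genes counted for each. The authors deposited raw counts for 56350 genes, which are the values used here.

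The 16484 genes with over 10 counts in 3 or more of the 12 libraries were kept, scaled by TMM factors and fitted over all 12 libraries with the quasi-likelihood test of edgeR 4.0.16 in R 4.3.3, with 8 residual degrees of freedom. FDRs are Benjamini-Hochberg values over all genes tested. A gene was called past both cutoffs when its FDR was under 0.05 and its log2 fold change was below -1 or above 1. Errors of log2 fold changes are Wald standard errors. CPM used the TMM-scaled library sizes, and a floor of 3 counts was 0.0447 to 0.0545 CPM. The labels do not say that replicates were separate cultures, so p-values measure the spread between these libraries. An exact permutation test of 3 against 3 cannot go below 0.1 and was not used.

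The members and lists were chosen with earlier results of these data known. Members past both cutoffs were named with full values, up to 10 rises and 10 falls whose highest condition averaged 100 counts or more, and the other members were named for their role or after their values were seen. Of the lists, up to 4 genes with the smallest FDR among calls and the core genes of the pathway were named, apart from 1 that is not reported here. Lyz2, Dmp1, Phex, Sost, Mepe, Adgre1, Siglech, Ptprc and Itgam were named as markers. Similar transcripts were found with blastn 2.17.0. Motif and sequence work used RefSeq windows of GRCm38.p6, the same assembly as mm10. The test was checked on simulated counts with a fixed spread, for genes above a low mean level. Thinly counted members such as Mx1, Rsad2 and Oas1a lie below that level, so the check does not cover them. Alternatives were RLE factors, DESeq2 1.42.0, no filter, the filterByExpr filter, the replicate number as a term, fits of only the 6 libraries compared, exclusion of genes that share exonic bases, and leaving out each library in turn.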

Additional observations from a re-analysis of the deposited data

Results flagged for a closer look

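The change with FG-4592 differed between osteocytes and MSCs, by the interaction term of edgeR, for 2 of 44 members past both cutoffs, both upward, a share near the 3.94% of all genes. Iigp1 fell less in osteocytes, with a log2 fold change higher there by 1.50 (FDR = 4.64e-06). All 3 treated libraries lay below all 3 vehicle libraries in each cell type. Ifih1 also had the smaller fall in osteocytes, higher by 1.05 (FDR = 0.00052), with no overlap of the groups in MSCs and overlap in osteocytes. Ifih1 was below the 2-fold cutoff, at 0.905 to 0.985, when any of 5 libraries was left out.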

How the results depend on the processing

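No member changed direction past a threshold under any alternative run. The falls with FG-4592 in MSCs numbered 21 under RLE factors, DESeq2, no filter, filterByExpr, only the 6 libraries compared and the replicate block, and 20 to 22 when single libraries were left out. In osteocytes they numbered 14 to 16 under those settings and 13 to 17 when single libraries were left out, and rises numbered 0 to 1. Higher members in osteocytes against MSCs numbered 6 to 8 under vehicle and 8 to 10 under FG-4592 when single libraries were left out. The lower ones numbered 1 to 5 and 2 to 4, and the response difference called 1 to 2 upward and 0 to 1 downward. Excluding genes that share exonic bases removed 15 members by construction and left 0 lower under vehicle, 1 lower under FG-4592 and 1 upward response difference, beside 14 and 13 falls with FG-4592 in MSCs and osteocytes. Ifit1 under vehicle (-0.98) and the Ifih1 response difference (0.99) were not removed but were short of the 2-fold cutoff in that fit. The response difference could not be fitted with only 6 libraries. Mx1, Rsad2 and Oas1a had 10 counts or fewer in some libraries, which limits their precision.

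Libraries with the same replicate number did not deviate together (correlation -0.135 to 0.0543 over 18 pairs, 0 of them above 0.1), beside -0.0978 to 0.0926 for pairs of different numbers. With the replicate block, falls with FG-4592 numbered 21 in MSCs and 14 in osteocytes, and members lower in osteocytes under vehicle numbered 4 against 3, with no other count past both cutoffs changed. At the FDR cutoff alone, Ddx58, Trim30a and Bst2 lost their response difference (15 higher and 3 lower became 13 and 2), Mx2 left the 11 lower under FG-4592, and Mx1 and Rsad2 no longer passed in osteocytes (FDR 0.0702 and 0.125).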
